A study of Mus musculus with 24 samples.

Results

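The genes described here code for the interleukin-3 (IL-3) receptor and for the JAK2-STAT5 pathway that it drives, with the feedback genes that STAT5 switches on. They are Il3ra, Csf2rb, Csf2rb2, Jak2, Stat5a, Stat5b, Pim1, Socs1, Socs2 and Cish, 10 of the 22907 gene symbols on the array. They were chosen by name, through the RefSeq accession that each probe carries, and all 10 were on the array with 16 probes in all. Il3ra, Jak2, Stat5a and Socs2 had 2 probes each, Csf2rb had 3 and the other genes had 1.

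IL-3 is a growth factor of blood cell progenitors. Its receptor pairs the ligand-binding alpha chain, coded by Il3ra, with a signalling beta chain. The common chain of Csf2rb also serves the receptors for GM-CSF and IL-5, while the mouse has in addition a close copy, Csf2rb2, that serves IL-3 only. Binding of the ligand activates the JAK2 kinase, which phosphorylates STAT5A and STAT5B, and these enter the nucleus and raise the transcription of Pim1, Socs1, Socs2 and Cish. PIM1 is a survival kinase, whereas SOCS1, SOCS2 and CIS damp the receptor and close a feedback loop. The DA1 leukemia cells were first grown as an IL-3-dependent line, and their DA1-3b derivative carries BCR-ABL, a tyrosine kinase that can itself activate STAT5. None of these background statements was measured on the arrays, which report RNA and not phosphorylation.

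The study grew mouse melanoma and leukemia cell lines in which tumour cells had outlasted immunotherapy in mice, and compared them with their parents. Cy3-labelled RNA of 7 lines was hybridised to 24 mouse arrays of 1 colour, on 3 slides of 8 arrays. B16-M (3 arrays) is the parental B16F1-GFP-M melanoma line, B16-D (4 arrays) its dormant derivative B16F1-GFP-D, and B16-D-733 (4), B16-D-735 (3) and B16-D-739 (3) are lines of the second dormant generation. The labels do not say which of the 3 names B16F1-GFP-DB#1 to DB#3 belongs to which number. M0-p20 (4 arrays) and J365-p20 (3 arrays) are the leukemia lines, read here as parental DA1-3b and as DA1-3b/D365, isolated after 1 year of dormancy. That reading is inferred from the single leukemia comparison of the study and is not written in the labels. The melanoma lines were grown in culture, so that these arrays show lines derived from dormant cells. The labels describe DMEM with 10% FBS for the melanoma lines and name no medium or IL-3 for the leukemia lines. They do not say whether the arrays of a line came from separate cultures, so p-values measure the spread between these arrays, which may be technical.

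On 23 arrays, 46.0% to 55.8% of the spots were well above background. Replicate 2 of B16-D reached 90.3% and was left out of all comparisons except where stated. The melanoma lines had all 8 pigment cell markers (such as Tyr, Mlana and Sox10) above background on every array. Both leukemia lines had 7 of 10 myeloid markers so, and 4 of the 8 pigment markers on none of their arrays. Another 3, Mitf, Tyr and Sox10, were above background on every leukemia array, at lower levels than in melanoma. Of the myeloid markers, Kit and Cd34 were above background on no leukemia array, and Itgam and Kit were on every melanoma array compared. Levels are given as log2 signal relative to the 75th percentile of the array, where 0 is a spot brighter than 75% of the spots. They may be compared between lines for 1 probe, not between probes. In bulk RNA, fewer cells with a transcript and less transcript per cell cannot be told apart.

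STAT5 binds the palindrome TTCNNNGAA, where N is any base, and the same letters read alike on both strands. The RefSeq promoter table (build GRCm38.p6, 250 bases before to 50 bases after each gene start) held 11 windows for 8 of the 10 genes. Csf2rb and Socs2 had no entry. The letters were found in 2 of these 11 windows, against 8.30% of 32851 windows of all genes. Cish and Csf2rb2, which hold them, are shown because they also had the largest gaps between leukemia and melanoma among the probes used over all lines. The windows of Pim1 and Socs1, which had the next widest gaps, held no match. Capitals mark the letters of the palindrome. The first lies around the start of Cish on chr9:107296654-107296683, plus strand, and the second covers the 250 bases before the start of Csf2rb2 on chr15:78305722-78305971, minus strand. The third, before Il3ra on chr14:14346245-14346494, plus strand, belongs to the gene called most often in the comparisons with B16-M and has no match.
Cish: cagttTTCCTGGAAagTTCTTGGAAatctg
Csf2rb2: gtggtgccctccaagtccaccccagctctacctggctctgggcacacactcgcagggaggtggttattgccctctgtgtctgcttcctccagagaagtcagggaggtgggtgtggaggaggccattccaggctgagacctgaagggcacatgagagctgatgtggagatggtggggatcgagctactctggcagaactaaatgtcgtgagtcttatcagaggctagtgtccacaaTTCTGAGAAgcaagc
Il3ra: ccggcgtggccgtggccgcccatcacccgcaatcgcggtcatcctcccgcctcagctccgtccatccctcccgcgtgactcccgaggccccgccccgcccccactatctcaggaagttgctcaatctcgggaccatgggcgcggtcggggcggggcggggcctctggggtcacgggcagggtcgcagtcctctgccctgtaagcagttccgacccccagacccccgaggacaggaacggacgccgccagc

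The matches in Cish spanned bases 1 to 9 and 12 to 20 counted from the annotated start, and 0.457% of all windows held 2 matches or more. In Csf2rb2 the match ended 7 bases before the start. The stretch before Il3ra held 27 CG pairs and that before Csf2rb2 held 3, against a median of 6 over all windows. A match is a description of letters and shows no binding, and the arrays hold no measurement of binding.

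The first question was whether the pathway differed between the dormant-derived and the parental leukemia line. None of the 10 genes differed between J365-p20 and M0-p20 in limma, after adjustment over the 23036 genes tested, of which 1.08% passed the threshold of 0.05. None had an unadjusted p under 0.05, and the arrays of the lines overlapped for each gene, where 8.35% of all genes had no overlap. The median log2 fold change of the 10 genes was 0.06, against -0.02 over all genes tested. With 4 arrays against 3, no exact permutation test over arrays can give a p under 0.0286.

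**Figure D1:**
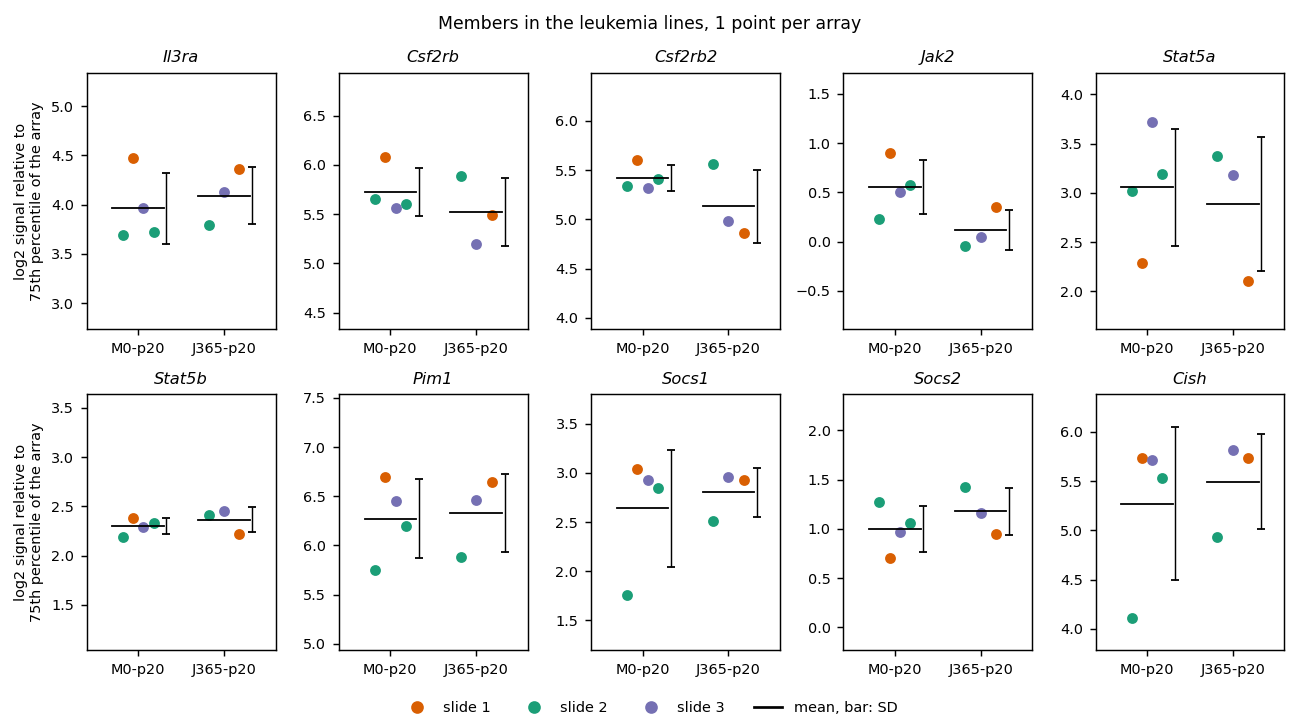
Log2 signal relative to the 75th percentile of the array (y axis) for each gene in M0-p20 (4 arrays) and J365-p20 (3 arrays), with points coloured by slide, a line at the mean and a bar for the SD. The arrays of both lines overlap in all 10 panels, and the lowest point of the Cish and Socs1 panels is replicate 0 of M0-p20, at 4.11 and 1.76.

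Among the receptor chains, Il3ra stood at 3.69, 4.47, 3.97 and 3.72 on the M0-p20 arrays and at 3.79, 4.13 and 4.36 on those of J365-p20. The values of each line fell within nearly the same range. The difference was 0.13 (SE 0.25, limma adjusted p = 0.978). Csf2rb, read by its brightest probe in these lines, stood at 5.65, 6.08, 5.56 and 5.61 in M0-p20 and at 5.89, 5.20 and 5.49 in J365-p20. Replicates 1 and 3 of J365-p20 were lower than every M0-p20 array, and replicate 0 was higher than all of them but replicate 1. The difference was -0.20 (SE 0.22, limma adjusted p = 0.974). Csf2rb2 stood at 5.34, 5.604, 5.32 and 5.41 in M0-p20 and at 5.56, 4.98 and 4.86 in J365-p20, a difference of -0.28 (SE 0.21, limma adjusted p = 0.963). As for Csf2rb, on replicates 1 and 3 of J365-p20 it was lower than on any M0-p20 array, whereas replicate 0 reached the parental range. Csf2rb and Csf2rb2 are near-identical genes, and how far a probe of one also reads the other cannot be told from these files.

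Jak2 showed the largest difference of the 10 genes in these lines. It stood at 0.23, 0.90, 0.50 and 0.57 in M0-p20 and at -0.04, 0.05 and 0.35 in J365-p20. Replicate 3 of J365-p20 alone reached into the parental range, just above replicate 0 of M0-p20. The difference was -0.43 (SE 0.21, 95% interval -0.92 to 0.05), with an exact permutation p of 0.0857 and a limma adjusted p of 0.81. The second, dimmer Jak2 probe differed by -0.66 (SE 0.29, limma adjusted p = 0.73). Within slides, with 1 or 2 arrays a line, the difference of the brighter probe was -0.56, -0.44 and -0.46 on slides 1, 2 and 3. With slide as a block it was -0.48 (SE 0.15, limma adjusted p = 0.424).

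Stat5a and Stat5b code for the near-identical transcription factors of the pathway. Stat5b, with 1 probe, stood between 2.19 and 2.38 in M0-p20 and between 2.22 and 2.45 in J365-p20, the narrowest spread of the 10 genes. The difference was 0.06 (SE 0.15, 95% interval -0.28 to 0.41). Stat5a stood at 3.01, 2.29, 3.72 and 3.20 in M0-p20 and at 3.37, 3.18 and 2.11 in J365-p20, and in both lines the low value was the array on slide 1. The difference was -0.17 (SE 0.41), and by its dimmer probe 0.30 (SE 0.28), so that the 2 probes gave opposite signs.

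The targets of STAT5 were bright in both lines. Pim1 stood at 5.75, 6.70, 6.45 and 6.20 in M0-p20 and at 5.89, 6.46 and 6.64 in J365-p20, and differed by 0.06 (SE 0.28, 95% interval -0.60 to 0.72). Cish stood at 4.11, 5.73, 5.71 and 5.53 in M0-p20 and at 4.94, 5.81 and 5.73 in J365-p20, and differed by 0.22 (SE 0.44, 95% interval -0.81 to 1.25). Socs1 stood at 1.76, 3.03, 2.93 and 2.84 in M0-p20 and at 2.51, 2.96 and 2.93 in J365-p20, and differed by 0.16 (SE 0.33, 95% interval -0.61 to 0.93). In each line, replicate 0 was the lowest array for all of Pim1, Cish and Socs1. Socs2 ran the other way, with 1.27, 0.71, 0.97 and 1.06 in M0-p20 and 1.42, 1.17 and 0.95 in J365-p20, so that replicate 0 was the highest array of each line. Its difference was 0.18 (SE 0.20, limma adjusted p = 0.974).

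The spread of the feedback genes was thus larger between arrays of 1 line than between the lines. Over the 7 leukemia arrays the levels of Socs1 and Cish had a correlation of 0.99, those of Pim1 and Cish 0.90, and those of Pim1 and Socs2 -0.86. These arrays share their normalization and some share a slide, and the values are descriptions with no test. Both replicates 0 lay on slide 2, but so did replicate 3 of M0-p20, where Cish was at 5.53. Without replicate 0 of M0-p20 the differences became -0.12 for Pim1, -0.13 for Socs1 and -0.17 for Cish, and without replicate 0 of both lines they were 0.10, 0.01 and 0.11, all short of the threshold. The intervals above span changes of up to about 1 on the log2 scale for Cish and Socs1, and in simulated data of this comparison 12% of 50 genes changed by a log2 of 1 were recovered.

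No other gene of the pathway lists was called between J365-p20 and M0-p20, where 1.08% of all genes passed. At that share, lists of this size hold few or no calls in any case. The lists were chosen with earlier results of these data known. Counts were 0 of 14 receptors tested, 0 of 6 ligands, 0 of 7 kinases and STATs, 0 of 17 other negative regulators, 0 of 11 adaptors and 0 of 16 genes known to respond to STAT5. The medians of these lists lay between -0.13 and 0.14, against -0.02 over all genes tested.

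The second question was how far the pathway set the leukemia lines apart from melanoma. In M0-p20 against B16-M, 8 of the 10 genes were higher and none lower, in a limma fit of 23 arrays in which 56.2% of 26757 genes differed. The arrays of the lines did not overlap for any of these 8 genes, where 53.9% of all genes had no overlap. Of the 8, Csf2rb2 entered the fit only through the leukemia arrays, on which it is high, so that its call adds no support. The median log2 fold change was 3.32 over the 10 genes and 0.19 over all genes tested. Stat5a and Stat5b were the exceptions. The lines differ in cell type. Of 9 myeloid markers tested, 8 were higher in M0-p20 and 1, Kit, was lower, while all 8 pigment markers were lower. Kit was above background on no leukemia array and on every B16-M array, with means of -6.88 in M0-p20 and -1.31 in B16-M.

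**Figure D2:**
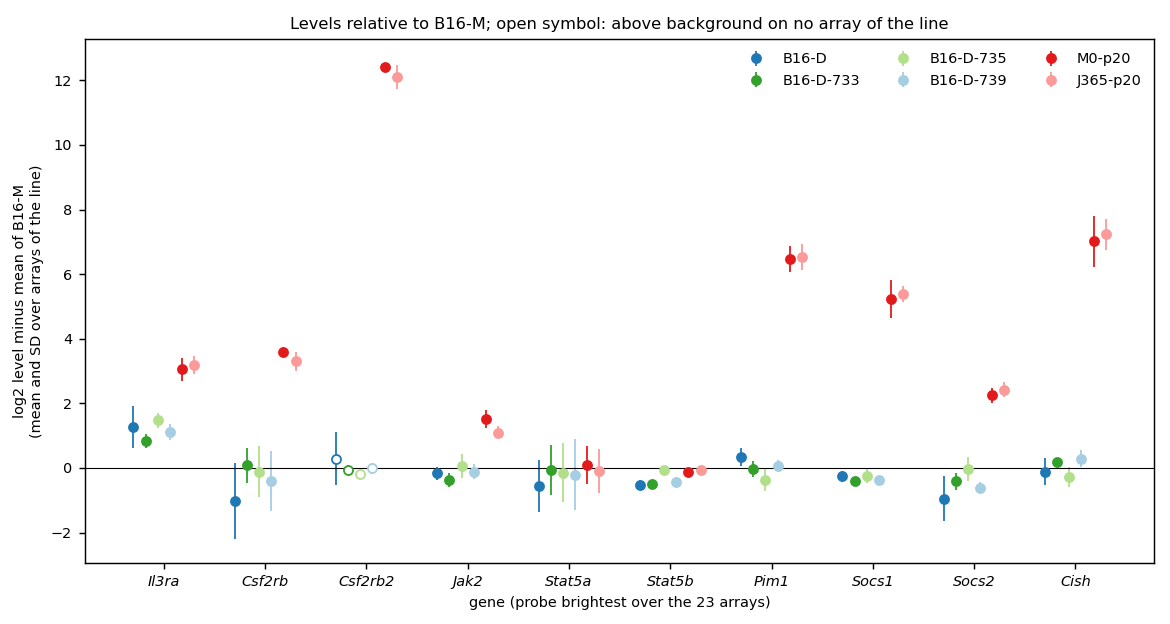
Mean log2 level of each gene in 6 lines minus its mean in B16-M (y axis), with the SD over the arrays of the line as bars; open symbols are lines in which the probe was above background on no array. Csf2rb2, Cish, Pim1 and Socs1 lie more than 5 above B16-M in both leukemia lines, while all melanoma lines stay within 1.5 of it for every gene.

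Cish, Pim1 and Socs1 had the widest gaps among the genes above background in both lines. Cish stood between 4.11 and 5.73 in M0-p20 and between -2.37 and -1.30 in B16-M, a 129-fold difference (log2 7.01, SE 0.35, limma adjusted p = 1.34e-12). Its lowest leukemia array was thus far above its highest melanoma array. Pim1 was 88.9-fold higher (log2 6.47, SE 0.23, limma adjusted p = 8.32e-15), with B16-M arrays between -0.39 and -0.01. Socs1, the inhibitor that binds JAK kinases, was 37.4-fold higher (log2 5.23, SE 0.22, limma adjusted p = 1.17e-13). Socs2 differed less, by 4.76-fold (log2 2.25, SE 0.29, limma adjusted p = 2.07e-06), and its dimmer probe gave a log2 difference of 2.54.

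Both beta chains were near the detection limit in melanoma. Csf2rb2 was above background on none of the 16 melanoma arrays compared and between 4.86 and 5.604 in the leukemia lines. It was at least 1279-fold higher in M0-p20 than in B16-M, where the B16-M level is set to the dimmest spot well above background on each array. The limma adjusted p of 1.17e-18 was fitted on the measured values, below background in B16-M. It does not test this bound and adds no support. The measured means were 5.42 and -6.98. For Csf2rb the 3 probes did not give the same picture. The brightest in leukemia was above background on no melanoma array compared and gave a difference of at least 1583-fold, and another gave at least 193-fold. The remaining probe, the brightest over the 23 arrays, was above background on 14 of 16 melanoma arrays at low levels, between -5.50 and -2.55, and gave a 12.1-fold difference (log2 3.60, SE 0.53, limma adjusted p = 9.77e-06). The size of the Csf2rb gap therefore depends on the probe, and its direction does not.

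Il3ra was expressed in melanoma too. It stood between 3.69 and 4.47 in M0-p20 and between 0.68 and 1.16 in B16-M, an 8.30-fold difference (log2 3.05, SE 0.26, limma adjusted p = 4.80e-09). Jak2 was 2.87-fold higher in M0-p20 (log2 1.52, SE 0.21, limma adjusted p = 4.75e-06). Stat5b did not pass, with 2.30 in M0-p20 and 2.43 in B16-M (difference -0.13, SE 0.11, 95% interval -0.36 to 0.10, limma adjusted p = 0.347). Stat5a did not pass either, at 0.08 (SE 0.61), by its brighter probe. The transcription factors were thus the only genes of the 10 without a called difference between the tumour types.

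The brighter Stat5a probe was lower on slide 1 than on the other slides in every line. Over the 8 arrays of slide 1 it ranged from 1.498 to 2.29, whereas it ranged from 3.01 to 3.53 on the 7 arrays of slide 2 and from 3.16 to 3.72 on the 8 of slide 3. The ranges of slide 1 and the others did not overlap. The dimmer probe ranged from 0.35 to 1.29 on slide 1, 0.56 to 1.91 on slide 2 and 0.53 to 1.52 on slide 3. With slide as a block the difference of M0-p20 and B16-M became -0.03 (SE 0.18) for the brighter probe.

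**Figure D3:**
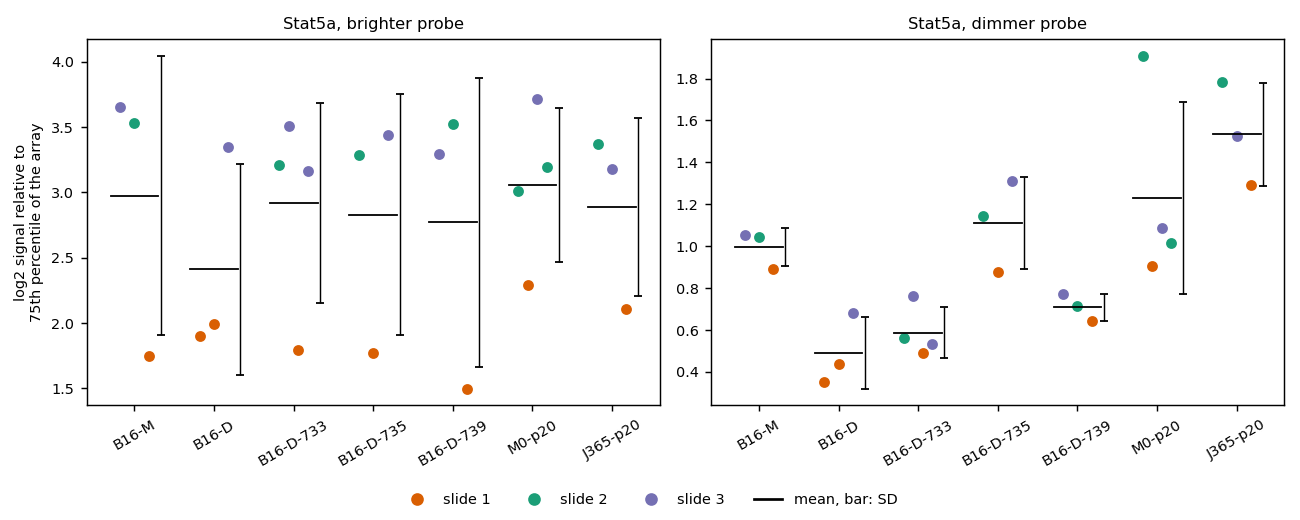
Log2 level (y axis) of the 2 Stat5a probes in the 7 lines, 1 point per array coloured by slide, with the mean and SD of each line. On the left, each line has its slide 1 array or arrays between 1.498 and 2.29 and all others above 3; on the right, B16-D, B16-D-733 and B16-D-739 stay below 0.8 and the B16-M arrays lie between 0.89 and 1.05.

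The third question was whether the pathway changed in the dormant-derived melanoma lines. The 4 comparisons with B16-M share its 3 arrays, so that they are not independent of each other. The fit covered 16 arrays and 24316 genes, and 9 of the 10 genes were tested, since Csf2rb2 was not above background on enough arrays. In B16-D, 1 gene rose (Il3ra) and 1 fell (Stat5b), 2 of 9 where 3.64% of all genes passed. In B16-D-733, 1 of 9 passed (Stat5b, lower) where 5.59% of all genes did. In B16-D-735 it was 1 of 9 (Il3ra, higher) against 5.06%, and in B16-D-739 1 of 9 (Il3ra, higher) against 3.71%. Medians of the 9 genes were -0.26, -0.06, -0.11 and -0.21 in this order, against medians over all genes between -0.04 and 0.03. Arrays of the dormant-derived line and of B16-M did not overlap for 3, 3, 1 and 3 of the 9 genes, against 17.2%, 18.7%, 20.2% and 19.6% of all genes. With 3 arrays against 3, an exact permutation test cannot give a p under 0.1, and with the 4 arrays of B16-D-733 none under 0.0286.

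**Figure D4:**
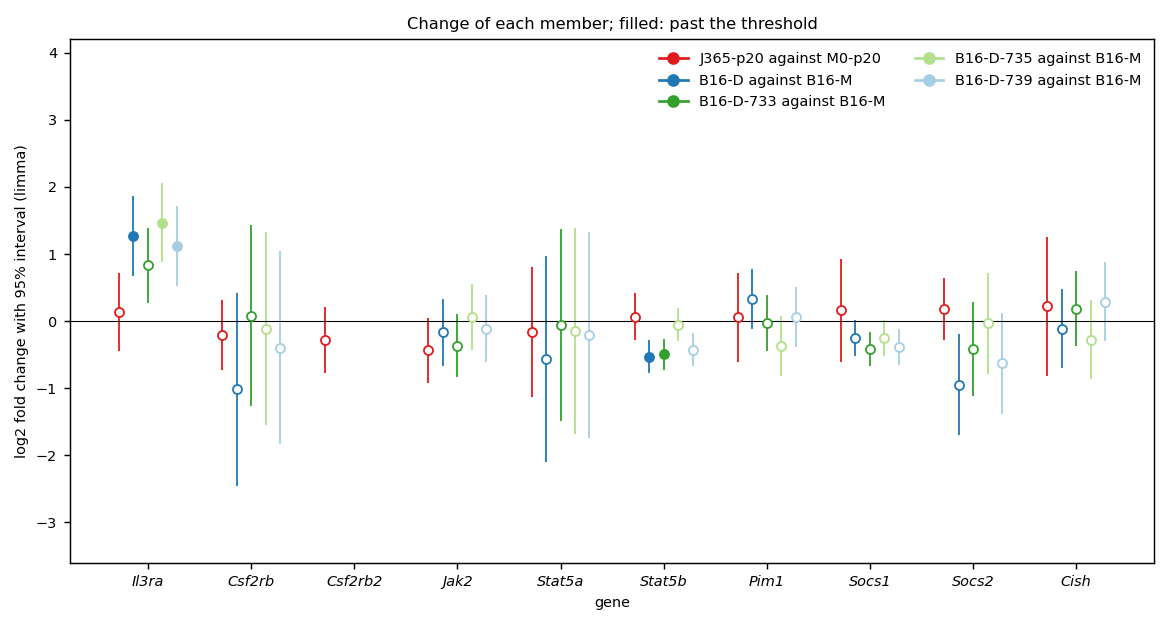
Log2 fold change with its 95% interval from limma (y axis) for each gene in J365-p20 against M0-p20 and in the 4 dormant-derived melanoma lines against B16-M, with filled symbols past the threshold. Il3ra is filled for B16-D, B16-D-735 and B16-D-739, Stat5b for B16-D and B16-D-733, and no leukemia symbol is filled; Csf2rb2 was tested in the leukemia fit only.

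Il3ra, the alpha chain that binds IL-3, stood at 0.88, 0.68 and 1.16 on the B16-M arrays. It stood at 2.92, 1.97 and 1.65 in B16-D, at 1.92, 1.54, 1.92 and 1.59 in B16-D-733, at 2.38, 2.61 and 2.15 in B16-D-735 and at 2.16, 1.74 and 2.18 in B16-D-739. Every array of the 4 dormant-derived lines was above every array of B16-M. Among these lines B16-D-735 was the highest and B16-D-733 the lowest, and neighbours in the order of means overlapped, except B16-D-733 and B16-M.

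The rise in B16-D was 2.42-fold (log2 1.27, SE 0.27, limma adjusted p = 0.0223, higher in 3 of 3 arrays). Its replicate 0 was the highest at 2.92 and had the fewest spots above background of the 23 arrays, and without it the log2 change was 0.90 and still passed (limma adjusted p = 0.0309). It missed the threshold without replicate 0 of B16-M (limma adjusted p = 0.0571), without replicate 1 of B16-M (0.109) with replicate 2 of B16-D (log2 1.07, 0.0652) and in a fit of these lines alone (0.341). In B16-D-735 the rise was 2.77-fold (log2 1.47, SE 0.27, limma adjusted p = 0.00621), and it passed in all alternatives that were run. In B16-D-739 it was 2.17-fold (log2 1.12, SE 0.27, limma adjusted p = 0.0402), but the call was lost when any 1 of the 6 arrays was left out (limma adjusted p from 0.055 to 0.171). In B16-D-733 the difference of 0.83 (SE 0.26) had a limma adjusted p of 0.0863, and 0.0315 with the replicate number as a block. That block was fitted over all 16 melanoma arrays, not over B16-D-733 and B16-M alone. In the titles of B16-D-733 the number 1 stands on 2 arrays, and the one called replicate 3 here was numbered by the code that opens its title.

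A second Il3ra probe gave the same direction. It stood between -2.54 and -2.25 in B16-M and between -1.85 and -0.73 on the arrays of the dormant-derived lines, with no overlap. With this probe the log2 difference was 1.08 in B16-D (limma adjusted p = 0.0113), 0.65 in B16-D-733 (0.0725), 1.26 in B16-D-735 (0.00249) and 0.75 in B16-D-739 (0.0709). Within slides, the differences of the brighter probe from B16-M lay between 0.68 and 1.70 in all 11 pairings of line and slide. The titles of replicates 1 to 3 of B16-D and of B16-D-733 carry a date that no other title has. On the undated replicate 0, Il3ra was 2.01 above the B16-M mean in B16-D and 1.01 above it in B16-D-733. The dormant-derived melanoma lines still stood below the leukemia lines, whose lowest Il3ra array was at 3.69.

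**Figure D5:**
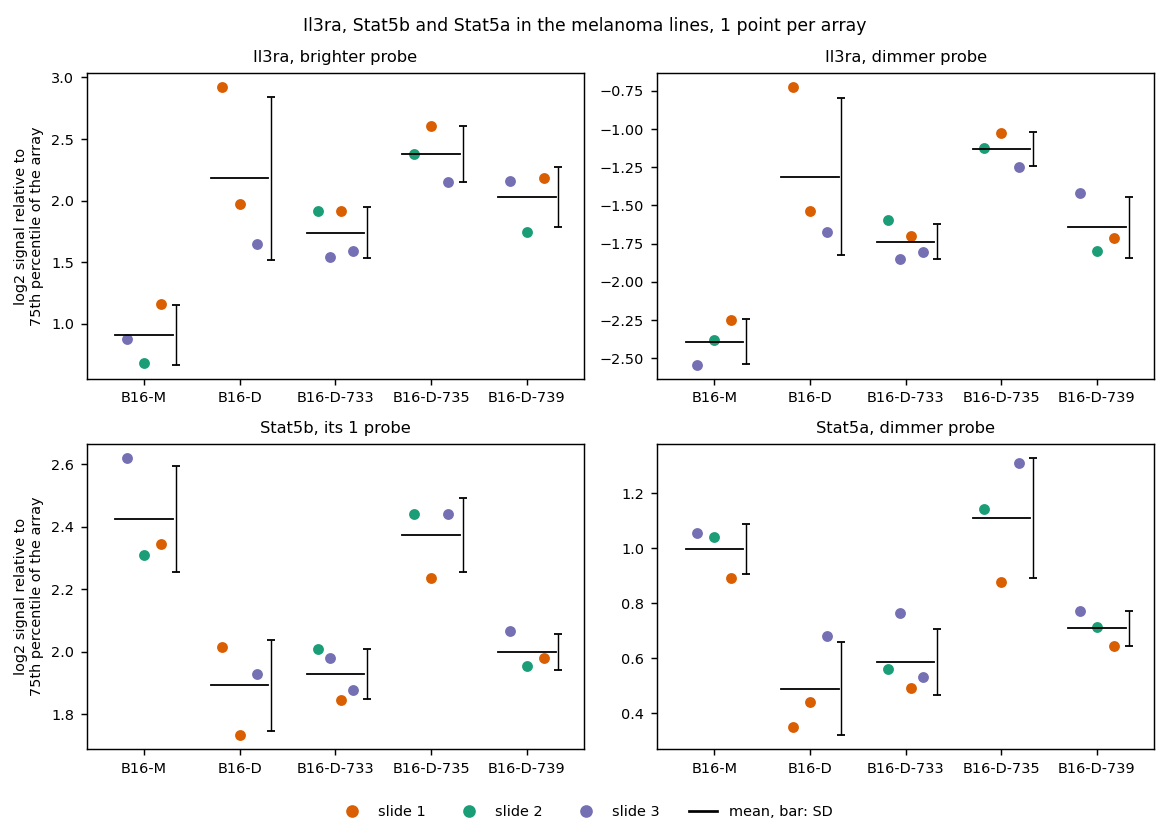
Log2 level (y axis) of the 2 Il3ra probes, of Stat5b and of the dimmer Stat5a probe in the 5 melanoma lines, 1 point per array coloured by slide, with the mean and SD. Both Il3ra probes are lowest in B16-M, and Stat5b lies between 1.73 and 2.07 in B16-D, B16-D-733 and B16-D-739 and between 2.24 and 2.62 in B16-M and B16-D-735.

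Stat5b moved the other way and split the dormant-derived lines. It stood at 2.62, 2.31 and 2.34 in B16-M and at 2.44, 2.24 and 2.44 in B16-D-735. The other lines were lower, with 2.02, 1.73 and 1.93 in B16-D, 2.01, 1.98, 1.85 and 1.88 in B16-D-733, and 2.07, 1.95 and 1.98 in B16-D-739. None of their arrays overlapped with B16-M or with B16-D-735. Against B16-M, Stat5b fell by 0.53 in B16-D (SE 0.12, limma adjusted p = 0.0228) and by 0.50 in B16-D-733 (SE 0.11, limma adjusted p = 0.0158) on the log2 scale. Its difference in B16-D-739 was -0.43 (SE 0.12, limma adjusted p = 0.065). It passed with the replicate number as a block over all 16 melanoma arrays (limma adjusted p = 0.0377). In B16-D-739 and B16-M, though not in every line, that number goes with the slide. In B16-D-735 it was -0.05 (SE 0.12, 95% interval -0.30 to 0.20). Without replicate 0 of B16-M, its highest array, the calls in B16-D (limma adjusted p = 0.0743) and B16-D-733 (0.0666) were both lost, and without replicate 1 of B16-D so was that in B16-D (0.1). In all, the Stat5b call was lost in 4 of 16 alternatives in B16-D (limma adjusted p up to 0.391). In B16-D-733 it was lost in 3 of 16 (up to 0.0771). On the undated replicate 0 the difference from the B16-M mean was -0.41 in B16-D and -0.42 in B16-D-733.

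Stat5a, the neighbour of Stat5b on chromosome 11, gave no called difference by its brighter probe, whose values follow the slide. By its dimmer probe it stood at 1.05, 1.04 and 0.89 in B16-M, at 0.35, 0.44 and 0.68 in B16-D and at 0.56, 0.76, 0.49 and 0.53 in B16-D-733. B16-D-739 had 0.77, 0.71 and 0.64, and B16-D-735 had 1.14, 0.88 and 1.31. As for Stat5b, the first 3 dormant-derived lines lay below all B16-M arrays and B16-D-735 did not. The differences from B16-M by this probe were -0.51 (limma adjusted p = 0.0508), -0.41 (0.0741), -0.29 (0.339) and 0.11 (0.836) for B16-D, B16-D-733, B16-D-739 and B16-D-735, of which none passed.

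None of the STAT5 targets Pim1, Socs1, Socs2 and Cish passed in any of the 4 lines in the fit without a block. Socs1 stood at -2.52, -2.62 and -2.62 in B16-M and between -3.10 and -2.58 in the dormant-derived lines, low but above background on every array. Its differences were -0.26, -0.41, -0.25 and -0.39 in B16-D, B16-D-733, B16-D-735 and B16-D-739, the lowest limma adjusted p being 0.0608 in B16-D-733. Socs1 arrays overlapped with B16-M in B16-D-735 only. Over all genes, 17.2%, 18.7%, 20.2% and 19.6% had no overlap in these lines in the same order. Socs2, which restrains growth hormone signalling, stood at -1.92, -0.80 and -1.03 in B16-M and at -2.996, -1.94 and -1.66 in B16-D, a difference of -0.95 (SE 0.35, limma adjusted p = 0.179). The arrays overlapped, and replicate 0 was the lowest of both lines. Cish stayed between -2.37 and -1.18 on all 16 melanoma arrays, with differences from -0.28 to 0.29. Pim1 stood between -0.97 and 0.39, with differences from -0.38 to 0.33. Jak2 differed by -0.37 to 0.06 from B16-M by its brighter probe, with no call. Its dimmer probe gave larger differences, -0.99 in B16-D (limma adjusted p = 0.0663), -0.65 in B16-D-733 (0.182), -0.54 in B16-D-739 (0.417) and -0.19 in B16-D-735 (0.903), and none passed.

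Lines of the second generation were also set against B16-D. No gene of the 9 passed in B16-D-733 (0.477% of all genes passed) or in B16-D-739 (0.317%), and none of the 9 had an unadjusted p under 0.05 in either. In B16-D-735, where 8.04% of all genes passed, 1 of 9 did. Stat5b was 1.39-fold higher (log2 0.48, SE 0.12, limma adjusted p = 0.0225) with no overlap. That call was lost without replicate 1 of B16-D (limma adjusted p = 0.0996) and without replicates 0 or 2 of B16-D-735 (0.0758 and 0.0925). Pim1 stood at -0.97, -0.46 and -0.30 in B16-D-735 and at 0.39, 0.16 and -0.17 in B16-D, a difference of -0.71 (SE 0.21, limma adjusted p = 0.056), also without overlap. With slide as a block Pim1 passed (limma adjusted p = 0.0486). By its dimmer probe Stat5a was higher in B16-D-735 by 0.62 (SE 0.13, limma adjusted p = 0.0107).

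Whether the change from the parental to the dormant-derived line differed between the models was tested directly, as the change in B16-D minus that in J365-p20. None of the 10 genes passed, where 2.28% of 26757 genes did. Of these genes, 3 had an unadjusted p under 0.05. Stat5b gave -0.60 (SE 0.16, limma adjusted p = 0.0633), Il3ra 1.14 (SE 0.38, limma adjusted p = 0.177) and Socs2 -1.13 (SE 0.43, limma adjusted p = 0.306). For Csf2rb2 the melanoma side of this value lies below the detection limit.

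Other pathway genes that passed in the comparisons with B16-M are listed by role. Of 15 receptors tested, Lifr, the receptor of leukemia inhibitory factor, was above background on no B16-M array and was called higher in all 4 lines, by at least 1.25-fold in B16-D, 2.48-fold in B16-D-733, 1.39-fold in B16-D-735 and 2.45-fold in B16-D-739. Ifngr1, a chain of the interferon gamma receptor, fell in B16-D (log2 -0.79, limma adjusted p = 0.0137) and B16-D-733 (-0.64, 0.0213). Kit rose in B16-D-733 (0.93, 0.032), and Epor, the erythropoietin receptor, fell in B16-D-735 (-1.03, 0.00916). Since Lifr entered the fit through the lines in which it is high, its call adds no support to the counts. Counts of receptors higher and lower, Lifr included, were 1 and 1, 2 and 1, 1 and 1, and 1 and 0 in B16-D, B16-D-733, B16-D-735 and B16-D-739, where 3.64%, 5.59%, 5.06% and 3.71% of all genes passed in either direction. Of 4 ligands tested, Csf1 fell in B16-D-733 (-0.60, 0.032) and B16-D-735 (-0.97, 0.00257) and Kitl in B16-D-733 (-0.72, 0.038).

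Of 7 kinases and STATs, Jak3, a kinase used by receptors with the common gamma chain, fell in B16-D (log2 -1.18, limma adjusted p = 0.000812), B16-D-733 (-0.89, 0.00216) and B16-D-739 (-1.09, 0.000994), the only call of that list. Of 15 other negative regulators, Socs3, the inhibitor of IL-6-type receptors, fell in B16-D (-0.65, 0.0418) and B16-D-733 (-0.71, 0.0123). The phosphatase gene Ptpn6 fell in the same lines (-1.04, 0.017 and -0.79, 0.0342) and Ptpn1 rose (0.37, 0.035 and 0.30, 0.0496). Of 11 adaptors, Sos1 alone fell, in B16-D-735 (-0.59, 0.0155). Over all genes, 3.64%, 5.59%, 5.06% and 3.71% passed in B16-D, B16-D-733, B16-D-735 and B16-D-739.

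Among 17 tested genes known to respond to STAT5, Myc rose in B16-D (log2 1.12, limma adjusted p = 0.0148), B16-D-733 (0.94, 0.0178) and B16-D-739 (0.92, 0.0393). Lcp1, an actin-bundling protein gene, fell in B16-D-733 (-2.45, 0.0129) and B16-D-735 (-2.84, 0.0082), and Ccnd3 fell in B16-D-733 (-0.42, 0.0178). In B16-D-735, Gadd45g (-1.06, 0.00873) and the survival gene Mcl1 (-0.51, 0.0287) fell as well. Counts of higher and lower genes were 1 and 0, 1 and 2, 0 and 3, and 1 and 0 in the order of the lines above, where again 3.64%, 5.59%, 5.06% and 3.71% of all genes passed. The medians of this list were 0.22, -0.02, -0.08 and 0.15. Some markers of other cell types also moved. Of 3 myeloid markers tested, Coro1a fell in B16-D, B16-D-733 and B16-D-739, Kit rose in B16-D-733 as given above, and Itgam was not called. Kit was above background on every melanoma array compared and on no leukemia array, so that its rise is no sign of another cell type here. Of 3 fibroblast markers tested, Dcn was at least 7.80-fold higher in B16-D-735 than in B16-M, where it was below background. Dcn entered the fit only through the B16-D-735 arrays, on which it is high, so that it adds no support. Col1a1 had means of -3.92 in B16-D-735, above background on 3 of 3 arrays, and -4.87 in B16-M, on 1 of 3. Pdgfra had means of -6.12 in B16-D-735, above background on no array, and -3.76 in B16-M (limma adjusted p = 0.107). Lum and Col3a1 were above background on no array of either line. Lck, a T cell kinase gene, rose in B16-D-733 and B16-D-739 and fell in B16-D-735. Their part in the values above was not tested.

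By the rule of the closest pattern, the gene whose level followed Il3ra best over the 23 arrays was Uqcc3 (Pearson r = 0.98), then Ndufv1 (0.97), both coding for mitochondrial respiratory chain factors. Pim1 was followed by Runx1 and F10, Socs1 by F10 and Emilin2, and Cish by Slc39a4 and F10. Jak2 was followed by Stxbp2 and Rnf126, Csf2rb2 by Stambpl1 and Gata1, Csf2rb by H2ac13 and Prnp, and Socs2 by Slfn10-ps and E2f7. Stat5b had a looser match, in Nedd1 (0.91) and Cd82 (0.89). Stat5a was matched by Pacsin1 and Tdpoz8, and its own level follows the slide. These correlations, searched over 15239 named genes, pool leukemia and melanoma arrays and are given as a description. They were not computed within either tumour type.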

How the data were processed

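Per the file headers, the authors extracted spot values with Agilent Feature Extraction 10.7.3.1 and deposited the intensity of every spot after background subtraction and detrending, with no scaling between arrays. The deposited flags (in other columns) mark spots well above background. The submitted series table equals these intensities on all 24 arrays. Here the 2468 outlier spots were left out, spots of a probe were averaged, and log2 intensities were taken relative to the 75th percentile of the array over 59305 non-control spots. RefSeq accessions gave gene symbols. Each gene was read by its brightest probe over the arrays of a fit and tested if well above background on at least 3 of them. Tests were two-sided and came from limma (version 3.58.1, run in R 4.3.3) with fits of 7 leukemia, 16 melanoma and 23 arrays, with Benjamini-Hochberg adjustment over all genes of a fit and a threshold of 0.05. The number of arrays limits the precision.

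Members and lists were chosen with earlier results of these data known. All 10 members are named; list genes are named if they passed, at most 5 a list and comparison by size of change; likeness takes the 2 highest Pearson correlations. Cell type lists covered myeloid, melanoma, fibroblast, T and NK, endothelial, erythroid, mast cell and keratinocyte markers. Fibroblast markers were above background on every array for at most 2 of 5 genes of a line, T and NK markers for 4 of 6, endothelial for at most 1 of 4, erythroid for at most 1 of 3, mast cell for at most 2 of 4 and keratinocyte for at most 1 of 2. Same-numbered arrays of B16-D-733 and B16-M deviated together (correlations 0.58, 0.35 and 0.82), as did those of B16-D-739 and B16-M (0.74, 0.58 and 0.83). Values with the replicate number as a block are therefore given there. The block was fitted over all 16 melanoma arrays. It thus took in B16-D-735, with correlations to B16-M of 0.80, -0.34 and -0.31 for replicates 0, 2 and 1. Same-numbered arrays of B16-D-739 and B16-M lie on the same slide, so that number and slide cannot be told apart. Of the B16-D-733 arrays, only replicate 2 shares its slide with the same-numbered B16-M array. Numbers in the titles of J365-p20 and M0-p20 did not pair the arrays (0.51, -0.04 and 0.16). The normexp alternative used the deposited median spot signal, since no mean signal is used here. Fits were tested on simulated data with 200 changed genes. Tables were made with Python 3.11.15, numpy 2.4.6 and pandas 2.3.3, and figures with matplotlib 3.10.9.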

Additional observations from a re-analysis of the deposited data

Results flagged for a closer look

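In 44 sets of 4 arrays (1 probe in 1 line each), 4 had an array whose gap to its nearest neighbour, divided by the range of the line, was above Dixon's 95% critical value, which chance alone gives in about 1 of 20 sets. Cish stood at 4.11 on replicate 0 of M0-p20, and Socs1 at 1.76 on the same array, below the other arrays of that line. Csf2rb, by its brightest probe in leukemia, stood at 6.08 on replicate 1 of M0-p20, above the others. By the probe that is brightest over all lines it stood at -3.96 on replicate 2 of B16-D-733, the array of that line on slide 1. On the melanoma arrays compared, this probe was lower on slide 1 in every line. It ranged from -5.50 to -3.96 there and from -3.58 to -2.55 on slides 2 and 3.

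On replicate 2 of B16-D, which was left out of the comparisons, the brightest leukemia probe of Csf2rb stood at -3.40 and Csf2rb2 at -3.15, both well above background there and on none of the other 16 melanoma arrays. That array had 90.3% of its spots above background.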

How the results depend on the processing

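The number of genes called among the 10 was unchanged in J365-p20 against M0-p20, B16-D-733 and B16-D-739 against B16-D (0 in each), B16-D-735 against B16-M (1) and M0-p20 against B16-M (8) in every alternative run. In B16-D against B16-M, 2 genes became 1 without a filter on dim probes and with replicate 2 of B16-D, 0 in a fit of these lines alone, 3 with the replicate block (Socs2 in addition, at -1.02, adjusted p = 0.0267; the numbers did not pair these arrays, with correlations of 0.28 and 0.04), and 0 to 2 without 1 array. In B16-D-733 against B16-M, 1 became 2 with probes above background on every array of a line, with slide as a block and with the replicate block, 0 without a filter, and 0 to 1 without 1 array. In B16-D-739 against B16-M, 1 became 2 with normexp, quantile normalization, slide as a block and the replicate block, 0 without a filter, with the second probe or in a fit of these lines alone, and 0 without any 1 array. In B16-D-735 against B16-D, 1 became 2 with the stricter filter, slide as a block or the second probe, 3 with the replicate block, 0 without a filter or with these lines alone, and 0 to 2 without 1 array. For the change in melanoma minus that in leukemia, 0 became 1 (Stat5b) with normexp, quantile normalization, slide as a block and replicate 2 of B16-D, and 0 to 1 without 1 array. The replicate block changed no other number of calls by over 1.5 times.

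Between J365-p20 and M0-p20, differences near 0 changed sign. Pim1 became -0.040 with normexp, -0.048 with slide as a block and -0.12 to 0.28 without 1 array. Stat5a became 0.069 with the mean of its probes, 0.055 with the replicate block, 0.30 with the second probe and -0.42 to 0.22 without 1 array. Without 1 array, Socs1 ranged from -0.13 to 0.30, Cish from -0.17 to 0.50 and Il3ra from -0.0041 to 0.30. The cause was not tested. The second probe and the fit without both replicates 0 were chosen after seeing the data. Few arrays a line limit the precision, and Csf2rb2 has no measured melanoma level.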

Other observations

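The genes of this paragraph were chosen after their values were seen. Csf2ra, the alpha chain of the GM-CSF receptor, was above background on every melanoma array compared, with line means from -0.23 in B16-M to 0.34 in B16-D-733, and on 1 of 4 arrays of M0-p20 and 2 of 3 of J365-p20. The alpha chain of one receptor and the beta chains Csf2rb and Csf2rb2 were thus bright in different tumour types. Csf2, the GM-CSF gene, was above background on none of the 23 arrays. Il3 was read at low levels by 1 of its 2 probes, on 3 of 4 arrays of M0-p20 (mean -3.50, SD 1.00) and 2 of 3 of J365-p20 (mean -3.75, SD 1.304). That probe was also above background on 2 of 4 arrays of B16-D-733, 1 of 3 of B16-D-735 and 2 of 3 of B16-D-739, with lower means. The other probe was above background on 1 array of B16-D-739 and on no leukemia array.

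Osm, a STAT5-responsive cytokine gene, stood at 4.36 (SD 0.72, n = 4) in M0-p20 and 4.70 (SD 0.20, n = 3) in J365-p20 by its brighter probe, and was above background on 1 melanoma array, of B16-D. Il2ra stood at 0.29 (SD 0.28) in M0-p20 and 1.29 (SD 0.75) in J365-p20 and was above background on no melanoma array. Bcl6, a repressor that competes with STAT5, was above background on every melanoma array, at -0.18 in B16-M, and on no leukemia array.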
